A study of Homo sapiens with 8 samples.

Results

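The wide control loci are stretches of at least 600 bp of the human genome whose listed signal was lower with an RNA oligo than without one. They were chosen by list and width: every region of 600 bp or more in 3 control lists was taken, and regions that shared at least 1 bp were merged. The 3 lists held 3021 such regions among 59923 control regions, and merging gave 1756 loci, out of 327994 regions in the whole series. The members are thus selected on 2 measured values, the sign of the ratio and the width, so their sign, their size and their comparison with narrower regions are given as descriptions without a test.

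H1 is an established line of human embryonic stem cells. Its purified DNA, freed of RNA and sheared by sound, was mixed with a biotin-labelled RNA oligo and the RNA was pulled down on streptavidin beads with the DNA bound to it. The 4 groups were MEG3 TFR1, MEG3 TFR2, GATA6-AS TFR1 and no oligo, with 2 libraries each from independent experiments, 8 libraries in all. The 2 MEG3 oligos and the GATA6-AS oligo are named after long noncoding RNAs, and the design was to capture the loci with which they form triplexes. Every group used 6 to 7 µg of DNA in fragments of 200 to 300 bp on average, with 20 pmol of oligo or none, in a buffer with 5 mM MgCl2 and 50 mM KCl that was kept at 37 °C for 1 h. All 3 comparisons used the same 2 no-oligo libraries. The material was 1 cell line and naked DNA, so no chromatin was present and no expression marker could be checked. The lists are called control here as the authors named them. Whether these loci are background, DNA that sticks to the beads by itself, was not measured, because no input library was analysed here.

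A triplex forms when an RNA strand lies in the major groove of double-stranded DNA and pairs with a run of purines, so an oligo would pull down DNA with fitting purine tracts. Without an oligo, DNA reaches the eluate only through unspecific binding to beads or tube. The parts of the genome around centromeres and on the short arms of acrocentric chromosomes hold long arrays of satellite repeats and blocks of duplicated sequence with few genes. Reads from near-identical copies can be placed at the wrong copy, and copies that are missing from the reference add their reads to those that are present. The treatment of such reads is not stated in the sources.

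The loci that carry a readable sequence are those that meet the promoter and microRNA tables of RefSeq (GRCh38.p14, the same build as the lists, hg38). Of 35116 promoter windows, each 250 bases before to 50 bases after a gene's start, 8 lay wholly inside a wide control locus. Purine tracts are the feature that triplex formation needs, so 4 of the 8 are printed as the 250 bases before the start, 5′ to 3′ on the gene's strand. They were chosen after the tracts were seen. Of the 4, 3 have the longest tracts in these bases, and CCNC is a protein-coding gene with a short tract at this start. Capitals mark the longest run of only purines or only pyrimidines, and a pyrimidine run is a purine run on the other strand.
CCNC, cyclin C, a subunit of the Mediator kinase module, minus strand, chr6:99568815-99569064: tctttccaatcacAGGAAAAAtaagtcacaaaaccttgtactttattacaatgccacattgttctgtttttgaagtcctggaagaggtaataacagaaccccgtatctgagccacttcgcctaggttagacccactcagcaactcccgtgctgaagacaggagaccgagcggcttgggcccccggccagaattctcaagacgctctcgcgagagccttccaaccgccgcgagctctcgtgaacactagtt
ACSL5, a long-chain acyl-CoA synthetase, plus strand, chr10:112375018-112375267: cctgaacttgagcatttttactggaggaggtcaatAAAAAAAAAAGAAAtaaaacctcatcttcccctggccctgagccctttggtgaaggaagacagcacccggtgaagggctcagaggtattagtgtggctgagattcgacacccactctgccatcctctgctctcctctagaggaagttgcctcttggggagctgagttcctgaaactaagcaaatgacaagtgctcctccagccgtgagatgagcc
BCO2, which cleaves carotenoids, plus strand, chr11:112175262-112175511: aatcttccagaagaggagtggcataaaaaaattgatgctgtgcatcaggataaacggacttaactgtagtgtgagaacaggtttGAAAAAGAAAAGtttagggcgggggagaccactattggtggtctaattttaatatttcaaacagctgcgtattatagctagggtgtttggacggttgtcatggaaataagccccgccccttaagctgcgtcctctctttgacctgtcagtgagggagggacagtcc
LOC105376265, a long noncoding RNA gene, minus strand, chr9:123321995-123322244: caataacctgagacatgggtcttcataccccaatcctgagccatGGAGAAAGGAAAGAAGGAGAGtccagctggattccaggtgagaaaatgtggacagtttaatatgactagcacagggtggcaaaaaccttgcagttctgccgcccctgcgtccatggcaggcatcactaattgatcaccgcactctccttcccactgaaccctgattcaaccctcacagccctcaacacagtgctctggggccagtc

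A log2 ratio is the authors' value for a region, the signal with the oligo over that without it. A value of -1 thus stands for 2-fold less signal with the oligo. Library scaling is not given, so the ratio cannot be read as an amount of DNA recovered. The 4 promoters printed lay in loci that reached 600 bp with GATA6-AS TFR1 only. The log2 ratio of that list was -0.72 at CCNC, -1.05 at ACSL5, -0.83 at BCO2 and -0.92 at LOC105376265. ACSL5 and BCO2 also had narrower control regions with both MEG3 oligos, at -1.42 (350 bp wide) and -1.37 (250 bp) with MEG3 TFR1 and at -1.52 (300 bp) and -1.67 (200 bp) with MEG3 TFR2.

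In the 250 bases printed, the longest tract was 21 purines at LOC105376265, 14 at ACSL5 and 12 at BCO2, against 8 purines at CCNC. Another CCNC start, whose window only overlaps the same locus, had a run of 13 pyrimidines in its 250 bases before the start. The short tract thus holds for the printed CCNC start only. Over the whole window, which also holds the 50 bases after the start, a tract of at least 10 bases, on either strand and of any purine or pyrimidine order, occurred in 4 of the 8 windows inside wide control loci, or 50.0%. The same was true of 85.3% of the 1225 windows inside captured loci of 600 bp or more and of 72.0% of all windows. Median GC content was 51.3% in the 8 windows (37.7% to 64.7%), against 62.0% in the captured ones and 58.7% in all. With 8 windows these shares describe the windows and no more. The windows wholly inside also included those of LIPE-AS1 and LOC101930071, whose starts share 1 locus of 1000 bp on chromosome 19, and that of LOC124902419. With windows that overlap a wide locus by at least 1 bp there were 19, among them those of the transcription factor gene ARID5B, the interleukin receptor gene IL17RD and NME4, and 12 of them (63.2%) held such a tract in the whole window.

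Of the microRNA genes, 3 met a wide control locus, and their mature sequences are printed with the seed, bases 2 to 8, in capitals.
hsa-miR-4777-5p: uUCUAGAUgagagauauauaua
hsa-miR-4777-3p: aUACCUCAucuagaaugcugua
hsa-miR-1299: uUCUGGAAuucugugugaggga
hsa-miR-1972: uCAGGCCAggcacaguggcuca
No 2 of these share a seed. MIR4777 lay in a locus of 900 bp at chr2:231362701-231363600, with log2 ratios of -0.64 with MEG3 TFR1, -1.02 with MEG3 TFR2 and -1.08 with GATA6-AS TFR1. MIR1299 lay in a locus of 1300 bp at chr9:40928351-40929650, at -1.8, -0.99 and -1.64 in the same order. Both loci were wide in all 3 lists. MIR1972-1 lay in a locus of 600 bp at chr16:15010151-15010750 that only GATA6-AS TFR1 listed, at -1.16. Of the 1562 hairpins in the table, 2 overlapped a wide control locus, those of MIR4777 and MIR1299, and 11 a narrower one, while MIR1972-1 was matched by its mature sequence.

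Wide control regions were a small part of each list and a larger part of its DNA. They made up 844 of 12649 control regions with MEG3 TFR1 (6.67%), 712 of 10944 with MEG3 TFR2 (6.51%) and 1465 of 36330 with GATA6-AS TFR1 (4.03%). Of the control DNA they covered 21%, 21.6% and 13.3% in the same order. In the captured lists, regions of at least 600 bp made up 17.8% with MEG3 TFR1, 8.04% with MEG3 TFR2 and 23.2% with GATA6-AS TFR1. The longest regions were in the control lists. Regions of 4 kb or more numbered 11 with MEG3 TFR1, 5 with MEG3 TFR2 and 17 with GATA6-AS TFR1 in the control lists, against 1, 0 and 2 in the far longer captured lists. The widest control region was 9950 bp, against 4800 bp for the widest captured one.

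The 1756 loci covered 1764 kb, with a median width of 750 bp. Of these, 689 (39.2%) were 600 or 650 bp wide, close to the limit that chose them, and 473 (26.9%) reached 1 kb. The 126 loci of 2 kb or more held 23.3% of the covered bases. At the limit itself, regions of 600 bp had median log2 ratios of -1.0 with MEG3 TFR1 (164 regions), -0.94 with MEG3 TFR2 (108) and -1.02 with GATA6-AS TFR1 (330). Regions of 550 bp, just outside, had -1.06 (200 regions), -0.96 (134) and -1.07 (467). Nothing in these values sets the 2 sides of the limit apart.

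The loss of signal was moderate. The median log2 ratio of wide control regions was -1.05 with MEG3 TFR1 (quartiles -1.39 and -0.86), -0.75 with MEG3 TFR2 (-0.93 and -0.61) and -1.05 with GATA6-AS TFR1 (-1.28 and -0.87), or 2.07-, 1.68- and 2.08-fold less with the oligo. Narrower control regions had -1.55, -1.49 and -1.58. In all 3 lists the ratio came closer to 0 with width up to about 600 bp, as the plot of log2 ratio against width shows. Beyond that the lists parted. With MEG3 TFR2 the median went on towards 0 and was -0.56 over the 5 regions of 4 kb or more. With MEG3 TFR1 it was -1.13 over 11 such regions and with GATA6-AS TFR1 -1.17 over 17. The lists' names carry an unexplained value of 2.5, the threshold behind them is not otherwise given, and whether it ties the smallest listed ratio to the width was not tested.

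**Figure D1:**
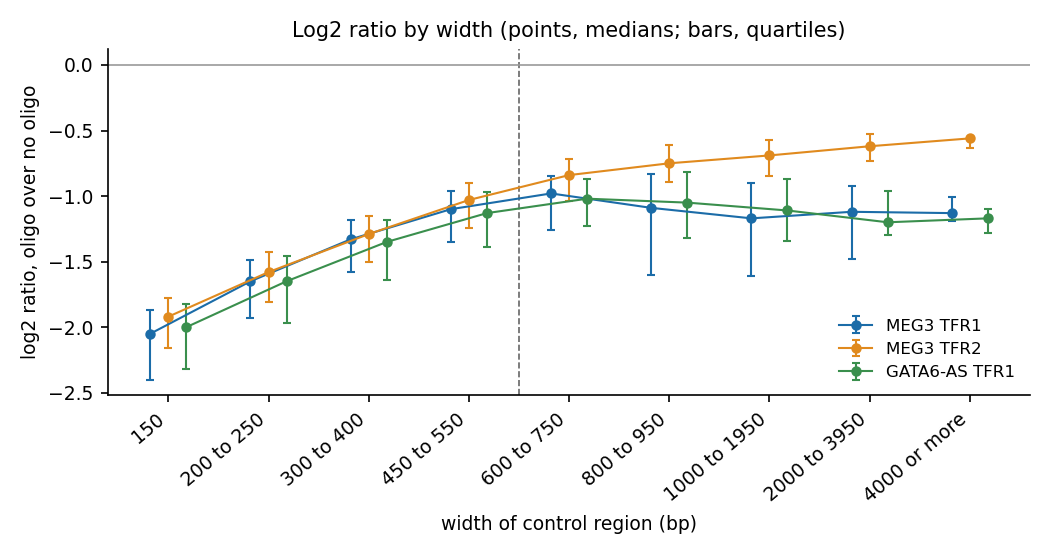
Median log2 ratio (oligo over no oligo, y axis) of control regions by width in bp (x axis), for the 3 control lists, with bars from the lower to the upper quartile; the dashed line marks the 600 bp limit. All medians are below 0. Left of the line the 3 lists run together, and right of it MEG3 TFR2 reaches -0.56 while the other lists stay between -0.98 and -1.20.

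Most loci were wide in 1 list. Of the 1756 loci, 1055 (60.1%, 95% Wilson interval 57.8% to 62.3%) had a region of 600 bp or more in 1 list, 308 (17.5%) in 2 and 393 (22.4%, 20.5% to 24.4%) in all 3. The intervals cover counting error only. GATA6-AS TFR1 alone accounted for 751 loci, MEG3 TFR1 alone for 209 and MEG3 TFR2 alone for 95. MEG3 TFR1 with GATA6-AS TFR1 gave 150, MEG3 TFR2 with GATA6-AS TFR1 127, and the 2 MEG3 oligos without GATA6-AS TFR1 31. The median width was 650 bp for loci of 1 list, 850 bp for 2 and 1400 bp for 3, and the 393 loci of all 3 lists held 40.4% of the covered bases. A locus is the union of its regions and a wide region meets others more easily, so its width grows with the number of lists by construction.

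Many loci of 1 list had a narrower control region in another. When a control region of any width was counted, 824 loci (46.9%) had one in all 3 lists and 472 (26.9%) in 1. Of the wide regions with MEG3 TFR2, 93.7% overlapped some control region of GATA6-AS TFR1 and 85.0% one of MEG3 TFR1. For narrower regions with MEG3 TFR2 these shares were 80.0% and 52.3%. Of the wide regions with GATA6-AS TFR1, 62.6% overlapped a MEG3 TFR1 control region and 58.2% a MEG3 TFR2 one, against 24.9% and 22.9% of its narrower regions. A wide region has more bases with which to meet another, and all comparisons share their no-oligo libraries, so these shares were not tested as sharing between oligos.

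The 393 loci wide in all 3 lists allow the ratios of the oligos to be set side by side at the same loci. The value of a list comes only from its own wide regions in the merged locus, so the bases behind it can differ between lists. Their median log2 ratio was -1.25 with MEG3 TFR1 (quartiles -1.81 and -0.98), -0.72 with MEG3 TFR2 (-0.87 and -0.59) and -1.21 with GATA6-AS TFR1 (-1.38 and -1.04). The value closest to 0 was that of MEG3 TFR2 at 334 of the 393 loci (85.0%), that of MEG3 TFR1 at 41 and that of GATA6-AS TFR1 at 18. At 4323 narrower control loci found in all 3 lists the medians were -1.63, -1.55 and -1.84, so there MEG3 TFR2 stood much closer to the other lists. How the libraries were scaled is not given, so a shift of a whole list cannot be told apart from a property of the oligo.

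MEG3 TFR1 had the widest spread of the 3 lists. A limit of -1.8, set after seeing the values, left 101 loci with a median of -2.04 and 292 with -1.10. The split was made on the MEG3 TFR1 values, so their gap is fixed by it. MEG3 TFR2 had -0.70 at the 101 and -0.72 at the 292, and GATA6-AS TFR1 -1.32 and -1.17. Of the 101, 30 lay on chromosome 1, 17 on chromosome 10, 16 on chromosome 16, 12 on chromosome 2 and 11 on chromosome 21. Within 2 Mb of a stretch of at least 2 Mb without any annotated gene lay 96 of them, against 176 of the 292. The locus chr16:46398551-46401950 had -2.16 with MEG3 TFR1, -0.66 with MEG3 TFR2 and -1.30 with GATA6-AS TFR1. The locus chr4:49096051-49100850, where all 3 lists gave the same 4800 bp, had -0.91, -0.56 and -1.12.

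**Figure D2:**
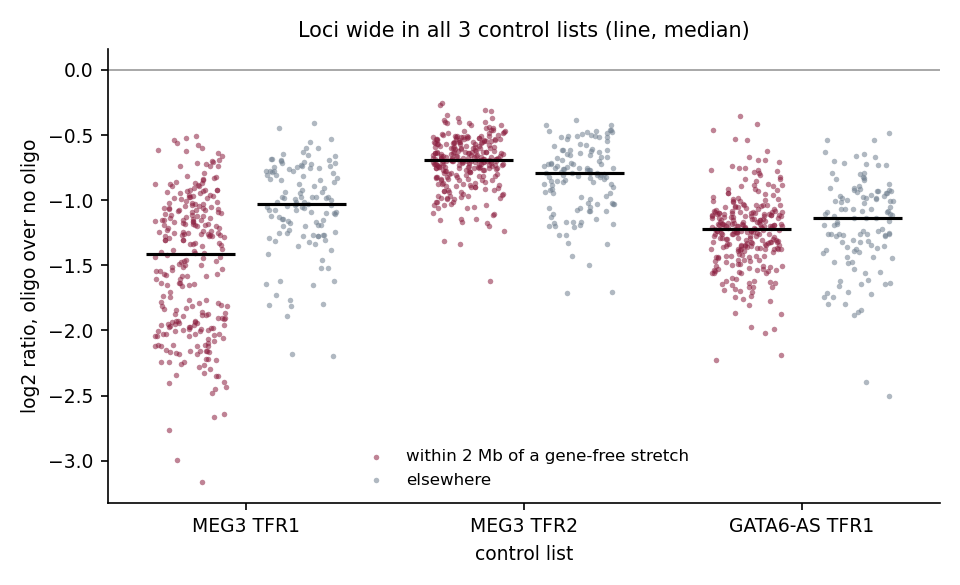
Log2 ratio (oligo over no oligo, y axis) at each of the 393 loci wide in all 3 control lists, for each list (x axis), with loci within 2 Mb of a gene-free stretch left of loci elsewhere and black lines at the medians. The MEG3 TFR2 points lie closest to 0, and the MEG3 TFR1 points near gene-free stretches spread most, with quartiles of -1.96 and -1.08.

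The single deepest values were all at loci of at least 2 lists. The lowest wide region of a locus set its rank, so loci with more wide regions had more chances of a low value by construction. At chr10:41848751-41849900 the ratio was -3.16 with MEG3 TFR1, or 8.97-fold less, while MEG3 TFR2 had -0.82 and GATA6-AS TFR1 -1.33. At chr1:143226801-143227500 the values were -2.99, -0.66 and -1.34 in the same order. Of the 10 loci with the most negative ratio, 9 lay near a gene-free stretch. The exception was chr6:13044551-13045200 inside PHACTR1, the gene of a phosphatase and actin regulator, with -1.8, -2.27 and -2.67. There the MEG3 TFR2 region was 500 bp wide, so the locus counted as wide in 2 lists.

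In position the loci were concentrated around the largest gene-free stretches of the assembly. RefSeq leaves 27 stretches of 2 Mb or more without any annotated gene, 26 of them autosomal, between 2.02 and 21.7 Mb long. Whether they lie at centromeres, blocks of heterochromatin or acrocentric short arms was not checked against a map of these. Of the 1756 loci, 543 (30.9%, interval 28.8% to 33.1%) had their midpoint in such a stretch or within 2 Mb of one, and 256 (14.6%) lay inside one. Among narrower control loci 4.12% were near a gene-free stretch, and among captured loci of 600 bp or more 1.61%. The stretches with their flanks make up 9.02% of the 2874 Mb of autosomes, assembly gaps included. The share went with the number of lists: 69.2% of loci wide in 3 lists, 39.9% of those in 2 and 14.0% of those in 1. Width differed between these classes too, with medians of 1400, 850 and 650 bp. With the width limit the share also rose, from 21.1% at 500 bp to 61.3% at 1000 bp. The parts of width and of the number of lists were not told apart.

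**Figure D3:**
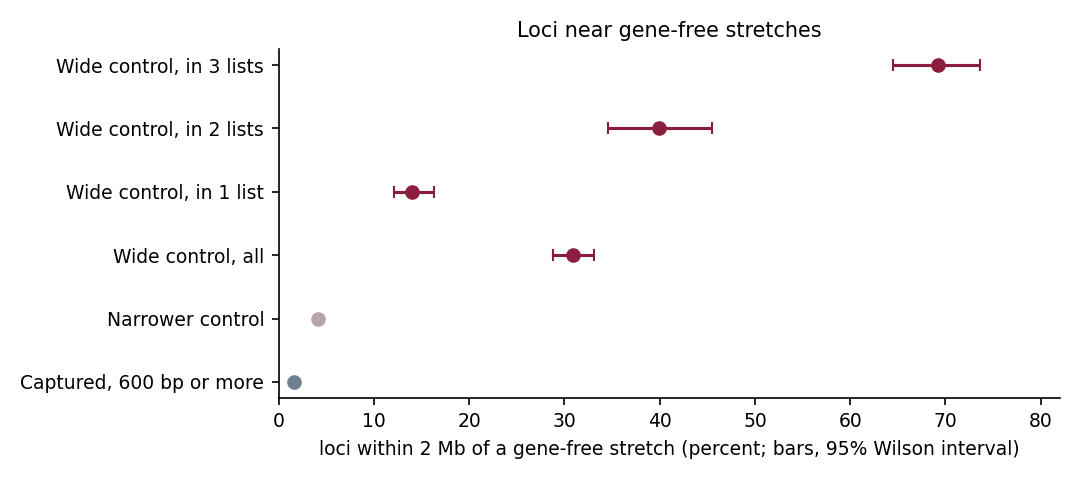
Share of loci within 2 Mb of a gene-free stretch (x axis, percent) for wide control loci by number of lists and together, narrower control loci and captured loci of at least 600 bp (rows), with 95% Wilson intervals for counting error. The share is 69.2% for loci in 3 lists, 30.9% for all wide control loci, 4.12% for narrower control loci and 1.61% for captured loci.

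Relative to genes the loci were more often outside. Midpoints lay between annotated genes for 50.8% of wide control loci (interval 48.5% to 53.1%), against 36.3% of narrower control loci and 27.8% of captured loci of 600 bp or more. Midpoints inside a protein-coding gene, but not within 1 kb of the end of such a gene, made up 35.0%, against 50.0% and 55.7%. Pseudogenes, transcribed ones included, held 4.38%, against 1.56% and 1.37%. Genes of long noncoding RNAs held 10.4%, against 14.4% and 12.1%. The edge of a protein-coding gene, within 1 kb of either end, held 2.51% of the wide control loci and 2.81% of the narrower ones, against 11.1% of captured loci. The share of wide control loci was 14.4% with an edge of 5 kb, and 1.33% and 1.09% with width limits of 800 and 1000 bp. The share in the outermost 2 Mb of a chromosome was 4.67%, against 3.55% and 10.1%.

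Chromosome 21 held the most, with 195 loci, 11.1% of all and 4.18 per Mb. Of these, 166 lay near a gene-free stretch and 77 were wide in all 3 lists. Next per Mb came chromosome 22 with 106 loci (2.09 per Mb), chromosome 19 with 100 (1.71 per Mb), chromosome 20 with 103 (1.60 per Mb) and chromosome 17 with 122 (1.47 per Mb). Chromosome 10 had 116 loci (0.867 per Mb). The fewest per Mb of an autosome were on chromosome 13, with 17 loci (0.149 per Mb), and chromosome 18, with 20 (0.249 per Mb). Narrower control loci were far more even, at 8.71 to 21 per Mb over the autosomes, with 12.7 per Mb on chromosome 21. Captured loci of 600 bp or more were densest on chromosome 19, at 76.5 per Mb, and had 10.2 per Mb on chromosome 21. The lists held hardly any region on X, with 0 wide control loci, 3 narrower ones and 3 captured loci of 600 bp or more.

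**Figure D4:**
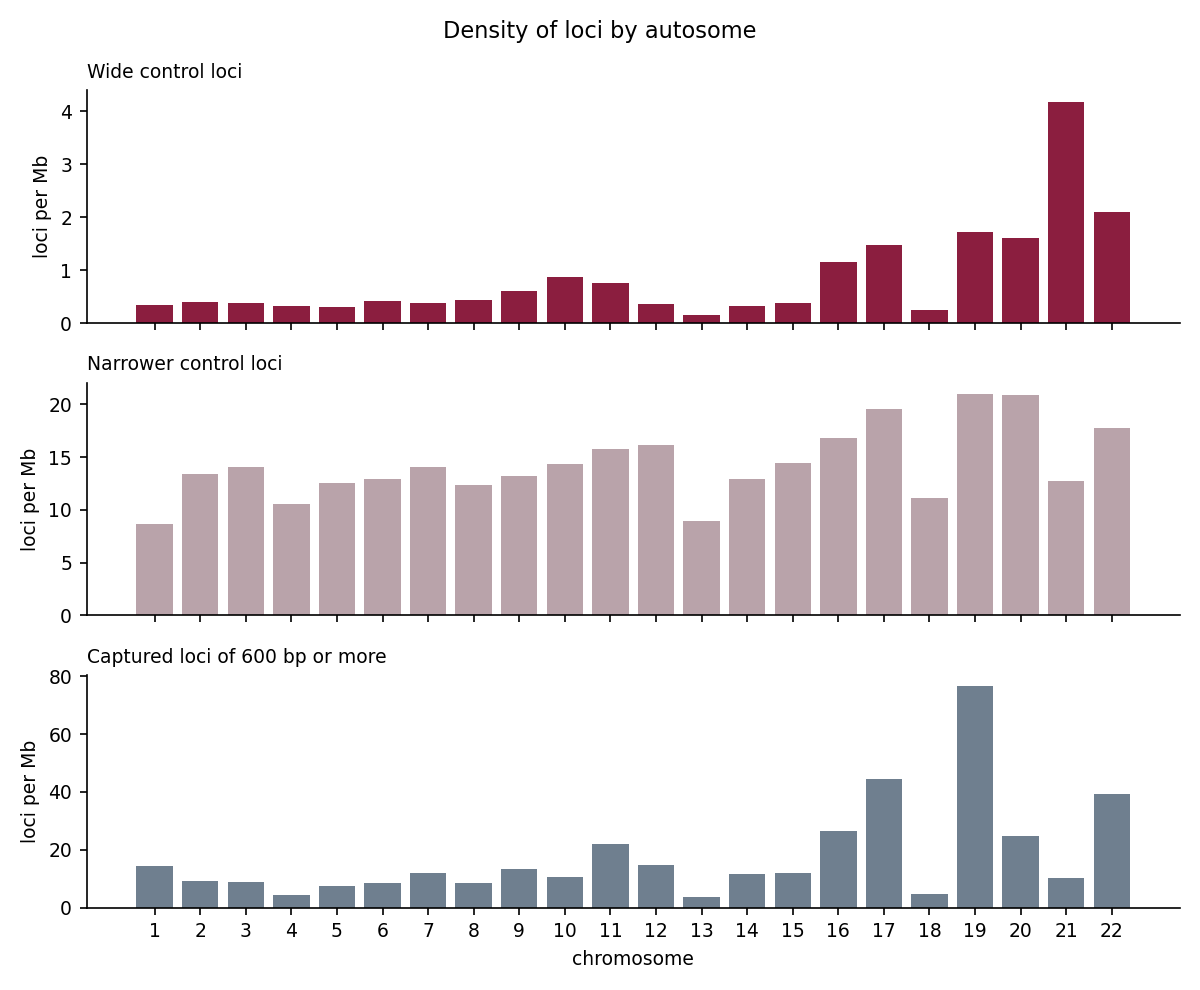
Loci per Mb (y axis) by autosome (x axis) for wide control loci, narrower control loci and captured loci of 600 bp or more, each panel with its own scale from 0. Chromosome 21 is highest for wide control loci (4.18 per Mb) and chromosome 19 for captured loci (76.5 per Mb).

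Many loci came in tight groups. Loci within 100 kb of each other were joined into groups, a distance set after seeing the data. There were 717 loci alone (40.8%) and 25 groups of 10 or more, which held 643 loci (36.6%) and 51.2% of the covered bases within 3.47 Mb. Grouped and lone loci were unlike. Of the 643, 45.3% were wide in all 3 lists and 61.3% near a gene-free stretch, with a median width of 1000 bp. Of the 717 lone loci, 3.49% were wide in all 3 lists and 3.49% near a gene-free stretch. Their median width was 650 bp, and 53.4% lay inside a protein-coding gene and not within 1 kb of an end. GATA6-AS TFR1 was the only list for 432 of the lone loci. The log2 ratio differed little, with a median of -1.02 in the groups and -0.96 for lone loci.

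The largest group, at chr21:10270051-10814550, held 130 loci, 55 of them wide in all 3 lists, which covered 36.3% of its 544 kb. TPTE, the gene of a testis phosphatase, and BAGE2, a transcribed pseudogene of the B melanoma antigen family, lie there. Its wide regions had a median log2 ratio of -1.11 with MEG3 TFR1, -0.75 with MEG3 TFR2 and -1.09 with GATA6-AS TFR1. Some groups were almost solid: at chr10:41843101-41916200 the 27 loci covered 75.0% of the span and at chr2:90380551-90401550 the 10 loci covered 78.8%. The first of these holds chr10:41908651-41916200, a locus of 7550 bp with 1 region in each list, of 7400, 7250 and 7550 bp and log2 ratios of -1.19, -0.64 and -1.21. The widest locus of all, chr19:27347451-27359300, spans 11850 bp and was pieced together from 6 control regions with MEG3 TFR1, 8 with MEG3 TFR2 and 2 with GATA6-AS TFR1. Of the 10 widest loci, 5 carried no gene name in the authors' lists.

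The groups fell into those with and without captured regions among them. In 6 of the 25 groups no captured region of any oligo was listed: both groups on chromosome 19, and those at chr1:143184551-143276250, chr10:41843101-41916200, chr4:49632551-49712150 and chr2:90380551-90401550. In 15 groups captured regions were denser than over the autosomes as a whole, where there were 93.2 per Mb. The group at chr10:46514601-46561400, around GPRIN2, had 1004 captured regions per Mb and 406 narrower control regions per Mb, against 19.8 narrower control regions per Mb of autosome. Where both lists are dense in the same place, the number of copies of that DNA in H1 cells or in the assembly was not measured, and its part was not tested.

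Of the 25 groups, 10 had their midpoint away from the gene-free stretches and their flanks, and several of these covered genes. Others spanned no protein-coding gene, such as those at chr21:7916101-7967800, chr20:30819451-31242150 and chr9:40868651-40994300. At chr17:46088701-46286550 there were 46 loci, 12 wide in all 3 lists, over KANSL1, the gene of a scaffold subunit of a histone acetyltransferase complex, and over LRRC37A, a member of a duplicated gene family. Its wide regions numbered 25 with MEG3 TFR1, 20 with MEG3 TFR2 and 43 with GATA6-AS TFR1, and their medians were -0.93, -0.82 and -1.01. The same span held 70 captured regions, 19 with MEG3 TFR1, 21 with MEG3 TFR2 and 30 with GATA6-AS TFR1, or 354 per Mb. The group at chr6:257101-382400 held 35 loci over DUSP22, the gene of a dual-specificity phosphatase, with 67 captured regions. The group at chr11:73718951-73953000 held 34 loci over RAB6A, MRPL48, PAAF1 and DNAJB13, of which 3 were wide in all 3 lists, and 30 of its wide regions came from GATA6-AS TFR1 against 8 from each MEG3 oligo. The group at chr2:89677701-89849450 lies within the immunoglobulin kappa locus. Its 22 loci had a median of -1.38. None of the 314 annotated immunoglobulin segments held a wide control locus, against 1.21% of all genes. These segments are short, with a median of 0.456 kb, and 0.637% of them held a narrower control region.

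**Figure D5:**
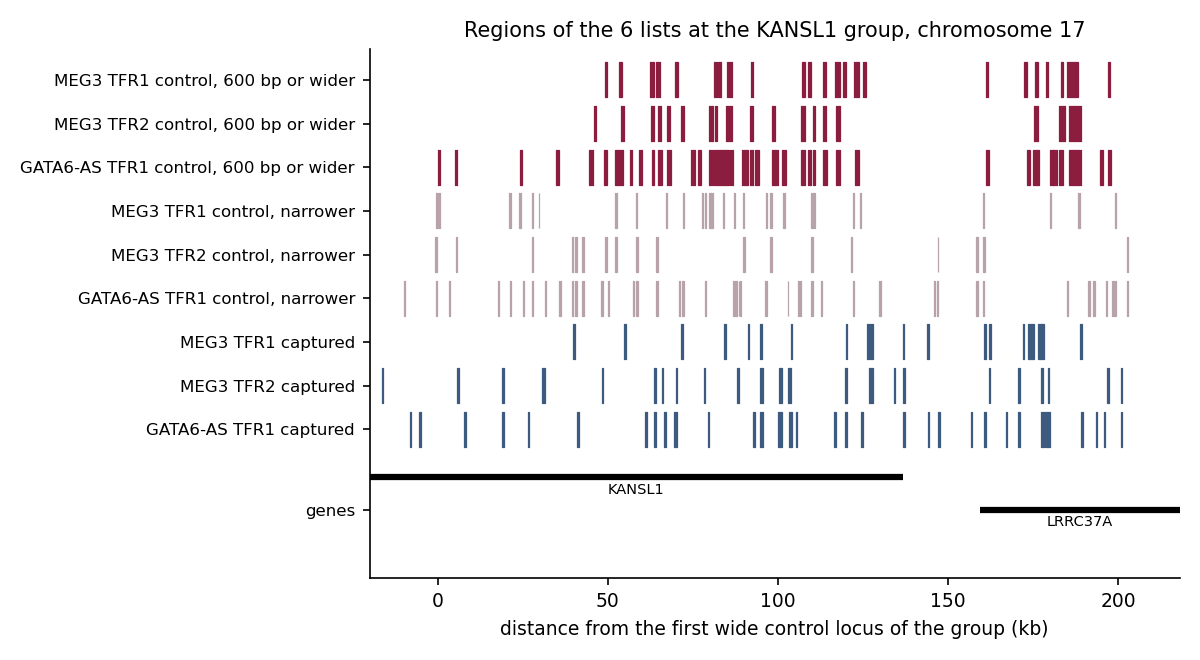
Regions of the 3 control lists (600 bp or wider, then narrower) and the 3 captured lists at the group of 46 wide loci around KANSL1, with the genes KANSL1 and LRRC37A below, against distance from the first wide locus (x axis, kb). Bars are to scale apart from a thin outline, and genes that run past the window are cut at its ends. Wide control regions crowd inside KANSL1 and near the left end of LRRC37A in all 3 lists, with 19 to 30 captured regions of each oligo in the group.

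Across genes, 504 of 19821 protein-coding genes (2.54%) held a wide control locus in their body, 463 of them 1 locus. The genes with a locus were long, with a median of 80.7 kb against 24.5 kb over all protein-coding genes. Of the genes of long noncoding RNAs 0.804% held one, and of pseudogenes, transcribed ones not counted, 0.173%. KANSL1 had the most, 35 loci that covered 39700 bp, 9 of them wide in all 3 lists. The long noncoding RNA gene LOC729732 on chromosome 8 had 25, BAGE2 22, DUSP22 21 and TPTE 18. Per 100 kb of protein-coding gene, among those of at least 20 kb with at least 3 loci, DUSP22 came first with 35.7 loci, before TPTE with 21.4 and KANSL1 with 17.9. PAAF1, which binds proteasomal ATPases, had 16.5, MRPL48, a mitochondrial ribosomal protein, 12.9 and LRRC37A 12.3. MAP2K3, a kinase upstream of p38, had 9.83 per 100 kb, PDPR, a regulatory subunit of pyruvate dehydrogenase phosphatase, 8.03, NBPF1, of the neuroblastoma breakpoint family, 5.87, and the Golgi GTPase gene RAB6A 4.68. The median log2 ratio of the loci in these 10 genes ranged from -1.12 in RAB6A to -0.75 in NBPF1.

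At the edges, 67 protein-coding genes (0.338%) had a wide control locus within 1 kb of either end, and 19 of these a locus wide in at least 2 lists. Among the 19, NBPF1 had a locus of 3850 bp with a mean log2 ratio of -0.53, and LRRC37A3, another member of the LRRC37 family, 1850 bp at -0.81. NME4, a mitochondrial nucleoside diphosphate kinase, had 1250 bp at -1.21 and DUSP22 1250 bp at -1.45. MRPL48 had 1200 bp at -0.79, OLFML2A, an olfactomedin-like gene, 1000 bp at -1.23 and the mucin gene MUC20 900 bp at -0.76. SNN and TXNDC11 share a locus of 800 bp at -1.07.

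The gene lists are given beside the share of all genes with a wide control locus, which was 2.54% for protein-coding genes. No wide control locus fell in any of 39 HOX genes, 77 ribosomal protein genes, 25 pluripotency genes or 20 genes of common fragile sites. Narrower control regions were found in 12.8%, 15.6%, 52.0% and 95% of these, and captured loci of 600 bp or more in 64.1%, 29.9%, 48.0% and 70.0%. The median gene length was 3.79 kb for HOX genes, 5.04 kb for ribosomal protein genes, 13.5 kb for pluripotency genes and 1375 kb for fragile site genes. Among 30 very long neuronal genes, 3 held one: the calcium channel genes CACNA1C (2 loci, the widest 850 bp, median -0.84) and CACNA1A (600 bp, -1.06) and the receptor phosphatase gene PTPRD (650 bp, -1.07). Their median length was 1146 kb, so a share of 10.0% goes with far more DNA per gene.

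Among 95 potassium channel genes, 4 (4.21%, against 2.54% of all protein-coding genes) held one: KCNG3 (-1.05), KCNQ1 (-0.77), KCNJ5 (-1.15) and KCNJ6 (-1.19). Of 93 cadherins and protocadherins, CDH23 (-1.05) and CDH6 (-1.07) did (2.15%), and of 44 collagen genes COL4A4 (-1.10, 2.27% of the list). Of 478 zinc finger genes with ZNF names, 8 did (1.67%), the widest in ZNF717, ZNF500 and ZNF730 with 700 bp each. Of 861 olfactory receptor genes and pseudogenes, OR6C66P did (0.116%). Over all genes of long noncoding RNAs the share was 0.804%. LINC genes had 15 of 2301 (0.652%), with LINC01410 on chromosome 9 the widest (2250 bp, wide in all 3 lists). Antisense genes had 30 of 2037 (1.47%), with KANSL1-AS1 (1050 bp, wide in all 3 lists) the widest. Of 87 microRNA host genes, MIR570HG and MIR4713HG did (2.30%). Of 1859 ribosomal protein pseudogenes, RPS3AP34 did (0.0538%), in a locus of 4250 bp wide in all 3 lists. Over genes annotated as pseudogenes, transcribed ones not counted, the share was 0.173%.

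The names the authors gave in the lists follow the same split. Of the 3021 wide regions, 25.5% had no name, 32.8% had plain names and 41.7% had names with a strand sign. The midpoint lay in a RefSeq gene for 87.3% of regions with plain names and 24.5% of those with a strand sign. Most midpoints of regions with a signed name thus lay outside every RefSeq gene. Whether the named gene itself holds the midpoint was not tested, and 61.3% of the signed names matched the RefSeq table. Of the loci, 15.8% carried no name at all, against 6.54% of narrower control loci and 7.16% of captured loci of 600 bp or more. The names on most loci were IGHV1OR21-1 with a minus sign (41 loci), KANSL1 (35), BAGE2 (22), DUSP22 (19), AL078471.5 and TPTE (18 each) and U2 with a minus sign (17).

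Some wide control loci were also met by captured regions. Of the 1756, 228 (13.0%, interval 11.5% to 14.6%) overlapped a captured region of any oligo, against 2.03% of narrower control loci. Where 0.5 of the shorter region had to be shared, in merging as well, 6.68% of the resulting 1796 loci overlapped one. The 228 loci had a median width of 900 bp, against 700 bp for the other wide loci. A wider locus has more bases to meet a region. MEG3 TFR1 captured regions met 148, MEG3 TFR2 captured regions 83 and GATA6-AS TFR1 captured regions 67, and 64 were met by at least 2 oligos. Of the 594 loci without any MEG3 TFR1 control region, 90 overlapped a MEG3 TFR1 captured region. For MEG3 TFR2 this held for 52 of 703 and for GATA6-AS TFR1 for 29 of 107. In the groups of 10 or more 22.4% of the loci were met by a captured region, and among lone loci 6.00%.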

How the data were processed

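The submitters' processing notes name FastQC, BWA 0.7.15-r1140 and the build hg38. The 6 lists the authors deposited give position, gene names and a log2 ratio per region. That its base is 2 was read from the values: 2 raised to it gave a fraction of whole numbers, the lower no larger than 400, within 3e-10 for 83.8% of wide regions. Caller and library scaling are not stated there or in the labels, and a p of 2.5 in the lists' names is unexplained. The lists hold no value per library, so depth is unknown and no replicate spread or test was possible.

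Regions of 600 bp or more of the 3 control lists were merged at 1 bp of overlap. Classes go by the midpoint, and a locus counts in a list where it is 600 bp or wider there. In medians, counts and edge loci a ratio per locus is the unweighted mean of its wide regions. For single loci named with a ratio per list, the mean is weighted by width. Genes came from RefSeq GRCh38.p14, 58419 of 59792 on assembled chromosomes 1 to 22 and X. Of the regions with a name, 73.9% matched that table. No genome sequence was used, so the loci's own base composition was not analysed here. Shares have 95% Wilson intervals. Merging and overlap were tested on simulated lists and recovered 6 of 6 counts. The overlap and midpoint counts among these were set from the merged loci themselves. The simulated regions of a list lay far apart, so loci joined from several regions of a list were not tested. The members and gene lists were chosen with earlier results of these data known. Loci and genes are named by fixed rules: the 10 widest, the 10 most negative, the 10 widest in all 3 lists, the 10 genes with most loci, the 10 protein-coding genes of at least 20 kb with most loci per 100 kb and at least 3 loci, up to 10 genes with an edge locus of at least 2 lists, and up to 4 genes per list. The text gives a part of these, 1 gene near a wide locus is not reported here, and groups, promoters, microRNAs and the limit of -1.8 were added after seeing the data. Alternatives covered width, ratio, overlap, joining, chromosomes, gene edge and annotation. Python 3.11.15, numpy 2.4.6, pandas 2.3.3, scipy 1.17.1 and matplotlib 3.10.9 were used.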

Additional observations from a re-analysis of the deposited data

How the results depend on the processing

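The width limit set most values. With limits of 500, 800 and 1000 bp there were 3276, 751 and 460 loci, against 1756. The share wide in all 3 lists was 16.4%, 33.4% and 37.4%, the share of 1 list 66.5%, 45.0% and 40.7%, and the share between genes 44.0%, 63.9% and 72.2%. Loci near a gene-free stretch made up 21.1%, 51.3% and 61.3%, and loci met by a captured region 9.89%, 18.0% and 19.6%. The gene edge held 1.33% and 1.09% with the limits of 800 and 1000 bp, and the median log2 ratio was -1.02 with that of 500 bp. Taking the 50% of wide regions with the strongest ratios left 975 loci, with 10.8% in all 3 lists, 59.3% between genes, 7.38% met by a captured region, 42.7% near a gene-free stretch and a median of -1.23. Requiring an overlap of 0.5 of the shorter region moved the share met by a captured region to 6.68%. Joining regions within 200 bp first gave 62.8% in 1 list, 27.4% near a gene-free stretch and a median of -1.02. Without chromosome 21, an alternative chosen after seeing the data, 20.2% were in all 3 lists, 63.4% in 1, 47.7% between genes, 11.3% met by a captured region and 24.2% near a gene-free stretch. A gene edge of 5 kb held 14.4%, and 63.6% lay outside protein-coding genes. Within 1 Mb of a gene-free stretch lay 27.8% and within 5 Mb 40.6%, both chosen after seeing the data. The cause of these shifts was not tested, beyond the change in which regions count.

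No paired analysis was possible because the lists hold 1 ratio per region and no value per library. For the same reason no library was left out, and no single ratio has an interval. Reads of near-identical copies cannot be told apart in these lists, which limits what a position means in repeated DNA.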

Other observations

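The share of control loci that are wide differed far more between chromosomes than the number of control loci did. Per 100 control loci of any width class, wide ones made up 24.8 on chromosome 21, 10.5 on chromosome 22, 7.50 on chromosome 19 and 7.11 on chromosome 20, against 1.64 on chromosome 13 and 2.19 on chromosome 18. In the group at chr1:143184551-143276250 narrower control regions were also dense, at 1080 per Mb, and no captured region was listed. The group at chr1:16604701-16765450, over NBPF1 and CROCCP2, had the ratios closest to 0 of the 25 groups, with a median of -0.70, and held 51 captured regions. The locus of 6700 bp at chr4:190106451-190113150 had -1.19 with MEG3 TFR1, -0.55 with MEG3 TFR2 and -0.93 with GATA6-AS TFR1. Several names with a strand sign are listed for it, among them DUX4, a homeobox gene of a subtelomeric repeat. The RefSeq gene it overlaps is LOC107986338.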
